A study of Homo sapiens with 16 samples.

Results

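The genes described here are those of glycosylphosphatidylinositol (GPI) anchor synthesis and remodelling, 30 of the 58051 genes in the count table. They were chosen by name, as the genes whose products build the anchor, attach it to proteins or trim it afterwards, and their symbols were matched to the Ensembl gene identifiers of the table. This choice, and that of the related lists below, was made with earlier results of these data known. The data are RNA sequencing counts from LNCaP, an established line of human prostate cancer cells. There were 4 groups of 4 libraries, and every culture ended with 3 h in 30 nM thapsigargin, a blocker of the calcium pump of the endoplasmic reticulum (ER) that causes ER stress. In the knockdown experiment, cells had received Allstar control siRNA (siCtrl) or siRNA against XBP1 (siXBP1) 2 days earlier. In the inhibitor experiment, cells had first spent 24 h in DMSO (Vehicle) or in 10 μM MKC8866, an inhibitor of the RNase activity of IRE1, the ER stress sensor whose RNase step yields the active transcription factor XBP1s. The question for these genes was how their mRNA levels differed when XBP1 or its activation was reduced under ER stress. Since every culture received thapsigargin, all values belong to stressed cells.

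A GPI anchor is a glycolipid that holds many proteins on the outer face of the cell membrane. It is built on phosphatidylinositol at the ER by adding glucosamine, an acyl chain, mannoses and ethanolamine phosphates in turn, and a transamidase then swaps it for a signal at the end of the protein. Enzymes of the ER and Golgi afterwards remove or replace parts of the anchor, and the complement regulators CD55 and CD59 and the prion protein are well-known proteins that carry it.

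Each library held between 28713607 and 34509488 counts, with group ranges of 31920910 to 34509488 for siCtrl, 28713607 to 32600081 for siXBP1, 28923919 to 34188950 for Vehicle and 29203993 to 34507788 for MKC8866. Levels are given below as CPM, counts per 1000000 counts, after scaling each library's total with edgeR's TMM factors. XBP1 itself was at 385, 421, 366 and 359 CPM in siCtrl replicates 1 to 4 and at 51.2, 54.2, 54.1 and 53.2 CPM in siXBP1 replicates 1 to 4. XBP1 was at 488, 539, 482 and 503 CPM in Vehicle replicates 1 to 4 and at 583, 619, 575 and 536 CPM in MKC8866 replicates 1 to 4. The siXBP1 libraries thus matched their label, and the siXBP1 and siCtrl ranges did not overlap. Gene counts do not separate spliced from unspliced XBP1 mRNA. DNAJB9, an ER chaperone gene induced by XBP1s, lay at 209.7 to 240.0 CPM in siCtrl against 42.7 to 47.9 CPM in siXBP1, and at 172 to 190.1 CPM in Vehicle against 43.4 to 55.2 CPM in MKC8866. With edgeR, whose adjusted p is corrected over all genes tested and was called below 0.05, DNAJB9 fell after knockdown (log2 fold change -2.31, adjusted p = 4.11e-19) and with MKC8866 (-1.87, adjusted p = 9.75e-17). SEC24D, a coat protein gene of ER vesicles, had log2 fold changes of -1.89 after knockdown and -1.05 with MKC8866, and SERP1, a gene for a protein that guards new membrane proteins, -1.50 and -0.75. ERN1, the gene for IRE1, had -0.16 and 0.25, and XBP1 had -2.85 (adjusted p = 2.92e-20) and 0.20 (adjusted p = 0.00493).

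The cells carried the markers of their label. The 6 prostate luminal markers examined (KLK3, KLK2, TMPRSS2, FOLH1, KRT8 and KRT18) had counts in every library, with FOLH1 the most abundant of them at 1029 to 1299 CPM. The 9 markers of basal, neuroendocrine, fibroblast, leukocyte and endothelial cells summed to between 28.7 and 41.4 CPM per library. COL1A1 made up most of that sum, while KRT5, DCN, PTPRC and PECAM1 had between 0 and 3 counts per library. The summed luminal markers stood at 2752 to 2888 CPM in siCtrl, 2211 to 2379 CPM in siXBP1, 2866 to 3018 CPM in Vehicle and 3138 to 3268 CPM in MKC8866, and the part of this shift in the results below was not tested. Their log2 fold changes differed: after knockdown KLK3 (-0.86), KLK2 (-0.78), TMPRSS2 (-0.89) and KRT18 (-0.35) fell while FOLH1 (-0.01) and KRT8 (-0.04) did not pass the test. With MKC8866 KLK3 rose (0.46), and KRT18 (-0.22, adjusted p = 0.0015) and the neuroendocrine marker SYP (-0.54, adjusted p = 0.00599) fell. FOLH1 (0.07) and COL1A1 (-0.24) did not pass the test with MKC8866 (adjusted p = 0.378 and 0.0799). Both did when libraries of the same number were compared as pairs, a replicate block described further on (adjusted p = 0.0234 and 1.57e-04). KLK2 (0.02), TMPRSS2 (0.07) and KRT8 (-0.05) did not pass with MKC8866 (adjusted p = 0.93, 0.427 and 0.7). With the block these 3 did not pass either (adjusted p = 0.757, 0.0519 and 0.153). The study's supplement calls the libraries of its heat maps independent samples, but the labels do not say whether replicates were separate cultures, so the p-values below measure only the spread between these libraries, which may be technical.

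Of the 30 GPI genes, 28 passed the filter, which asked each group for 1 or more libraries with over 5 counts. PIGY, which encodes a small subunit of the enzyme of the first step, had 0 counts in all 16 libraries. Its 217 annotated exon bases are all shared with PYURF on the same strand and HERC3 on the other, and fragments on shared exons were not counted, so PIGY could not be measured in this table. PGAP4, the gene for a Golgi enzyme that adds a sugar to the anchor's first mannose, had 0 to 3 counts per library and 18 in all.

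Per kilobase of annotated exon, the tested GPI genes spanned a wide range of levels. On this scale, CPM per kilobase averaged over the 16 libraries, the transamidase subunit genes PIGT (53.7) and GPAA1 (44.6) had the highest levels of the 30, followed by PIGA (23.9) and PGAP6 (22.1). The genes of the first step lay far apart, with per-kilobase levels of 10.5 for ARV1, 9.31 for PIGH, 4.44 for PIGQ, 3.79 for PIGP and 3.19 for PIGC. Without division by length their order was another, with mean CPM of 35.1 for PIGQ, 30.0 for PIGP, 27.1 for PIGH, 20.8 for ARV1 and 16.7 for PIGC. The length used is that of all annotated exons of a gene, not of the transcripts present. Its part in the order of levels was not tested. The lowest per-kilobase levels among the tested members were those of PGAP1 (0.964), PIGF (0.955), PIGZ (0.791) and GPLD1 (0.109), and GPLD1 had only 9 to 38 counts per library. Within a group, the coefficient of variation of a member's CPM had a median over members of 5.22% in siCtrl, 5.19% in siXBP1, 4.44% in Vehicle and 5.93% in MKC8866. The plot of levels per kilobase shows this order by step.

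After XBP1 knockdown, most GPI genes that passed the test were lower. Of the 28 tested, 12 were lower (42.9%) beside 18.2% of the 21021 genes tested, and 2 were higher (7.14%) beside 16.5% of them. In either direction 14 members were called, beside 34.8% of all genes. The 12 were PIGA, PIGC, PIGP, PIGL, PIGW, PIGM, PIGV, PIGN, PIGO, PIGS, MPPE1 and PGAP2, and the 2 were PIGH and PIGT. The median log2 fold change of the 28 was -0.10, where that of all genes tested was 0.00, and 21 of the 28 had a negative value. Most changes were small beside that of PIGP, and lower RNA per cell in the whole culture cannot be told apart from fewer cells with a larger change. Summed over all members, siCtrl libraries held 1364 to 1452 CPM and siXBP1 libraries 1289 to 1319 CPM, ranges that did not overlap.

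With MKC8866 far fewer GPI genes passed the test. PIGM alone among the 28 was lower (3.57%) beside 3.11% of the 21045 genes tested, and PIGQ alone was higher (3.57%) beside 1.36%, with 4.47% of all genes called in either direction. MKC8866 and Vehicle libraries of the same number correlated weakly in their deviations from the group means, and 6 of the 8 libraries correlated best with their own number, so the test was also run with a replicate block, a term that compares them as pairs. With the block, PIGM stayed the single lower member beside 7.05% of all genes, PIGQ and PGAP6 were higher (7.14% of members) beside 6.0%, and 13% of all genes were called in either direction. For the 28 members the median log2 value was -0.02, where that of all genes was 0.00, and 15 of the 28 were negative. Summed over all members, Vehicle libraries held 1311 to 1355 CPM and MKC8866 libraries 1312 to 1392 CPM, which overlapped. The summed siXBP1 range also overlapped that of Vehicle, while the siCtrl range lay above that of Vehicle. The plot of both fold changes sets the comparisons side by side.

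**Figure D1:**
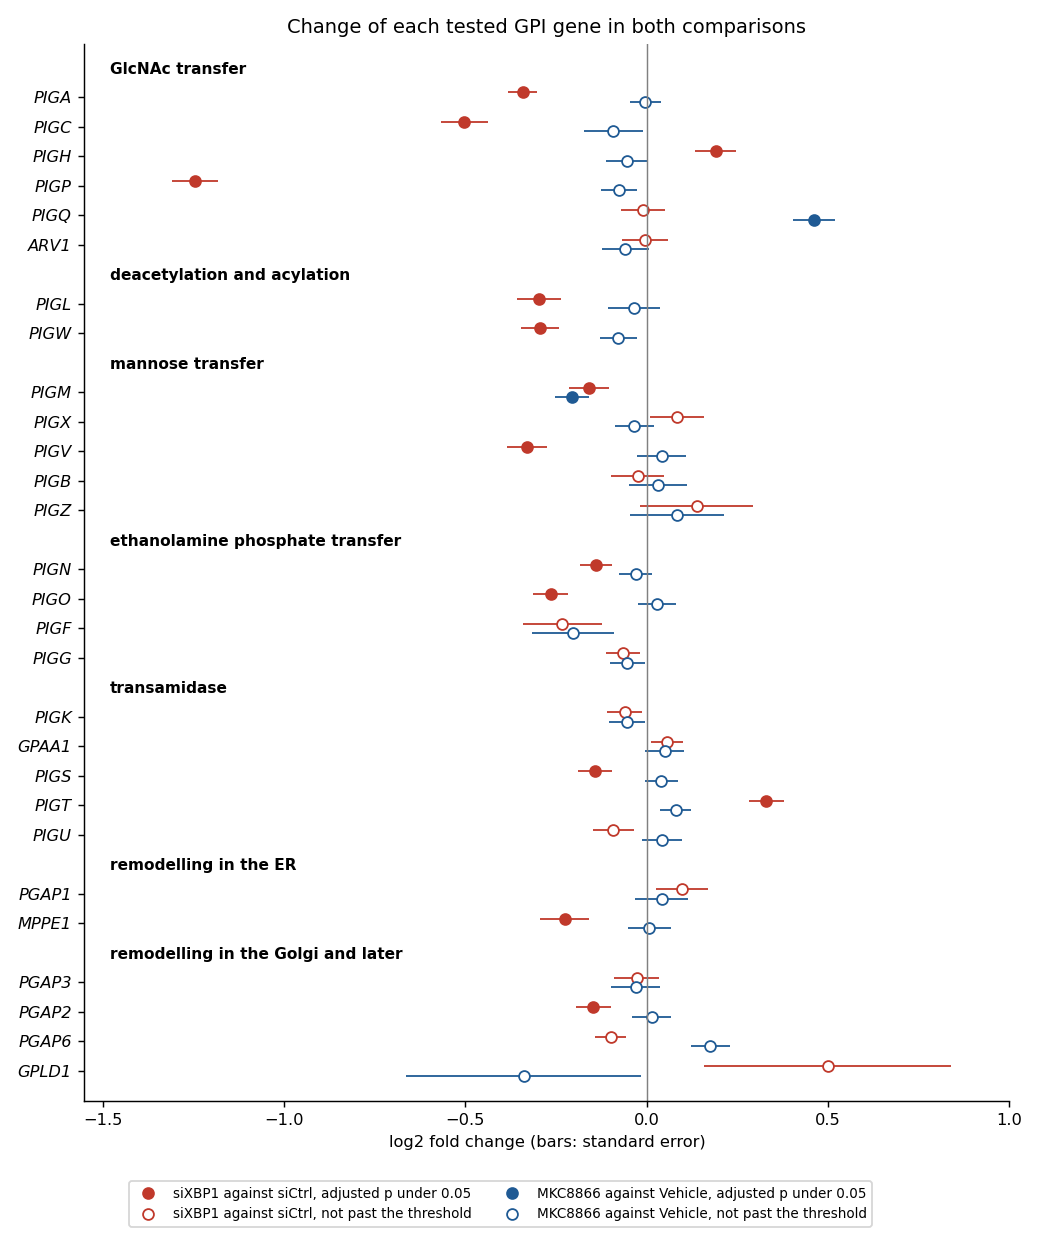
Log2 fold change of each tested GPI gene after knockdown (red) and with MKC8866 (blue), with standard errors as bars and filled points for adjusted p under 0.05. PIGP lies at -1.25 after knockdown and -0.08 with MKC8866, while PIGQ lies at -0.01 and 0.46.

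The difference between the responses was tested directly, as the log2 change after knockdown minus the log2 change with MKC8866 in an edgeR fit of all 16 libraries. Of the 28 members, 11 differed (39.3%) beside 23.3% of the 20357 genes tested: PIGA, PIGC, PIGH, PIGP, PIGQ, PIGW, PIGV, PIGO, PIGS, PIGT and PGAP6. With the replicate block there were 13 (46.4%) beside 27.7%, PIGL (adjusted p = 0.0182) and MPPE1 (adjusted p = 0.0486) being added. The experiments have separate controls and pretreatments, which this difference does not separate from the treatments. PIGM was the 1 member lower in both comparisons (3.57%) beside 2.48% of the 20357 genes.

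The first step, the transfer of N-acetylglucosamine to phosphatidylinositol, is carried out at the ER by a complex whose catalytic subunit is PIGA and whose other subunits include PIGC, PIGH, PIGP, PIGQ and PIGY. Of the 6 tested genes of this step, with ARV1 counted among them, 3 subunit genes fell after knockdown, 1 rose and 2 were not called. Of all genes tested, 18.2% were lower and 16.5% higher after knockdown. The promoters of the 3 that fell and of PIGQ, the subunit gene that changed with MKC8866, are printed for comparison. They are RefSeq sequences on GRCh38.p14, from 250 bases before to 50 after the annotated start, written 5′ to 3′ on the gene's strand. Capitals mark ACGTG, the core of the element that XBP1s binds, and CCACG, a piece of the ER stress element, on either strand.
PIGA promoter, chrX:15335474-15335773, minus strand: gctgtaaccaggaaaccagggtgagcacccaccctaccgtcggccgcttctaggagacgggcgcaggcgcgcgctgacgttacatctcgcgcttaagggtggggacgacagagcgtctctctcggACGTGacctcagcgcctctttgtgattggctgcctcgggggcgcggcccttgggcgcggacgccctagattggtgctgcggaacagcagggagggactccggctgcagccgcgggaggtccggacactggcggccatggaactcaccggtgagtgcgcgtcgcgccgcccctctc
PIGC promoter, chr1:172444020-172444319, minus strand: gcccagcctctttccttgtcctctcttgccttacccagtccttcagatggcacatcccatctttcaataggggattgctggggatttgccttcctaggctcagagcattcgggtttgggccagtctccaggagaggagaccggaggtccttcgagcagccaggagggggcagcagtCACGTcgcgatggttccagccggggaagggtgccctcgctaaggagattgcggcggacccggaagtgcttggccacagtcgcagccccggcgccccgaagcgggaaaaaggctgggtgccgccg
PIGP promoter, chr21:37073022-37073321, minus strand: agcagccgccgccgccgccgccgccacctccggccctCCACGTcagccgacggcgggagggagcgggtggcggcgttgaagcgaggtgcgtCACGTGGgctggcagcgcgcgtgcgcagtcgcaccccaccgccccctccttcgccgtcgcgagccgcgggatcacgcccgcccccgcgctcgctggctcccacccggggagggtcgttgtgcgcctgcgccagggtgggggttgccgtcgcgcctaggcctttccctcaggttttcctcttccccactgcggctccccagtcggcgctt
PIGQ promoter, chr16:569718-570017, plus strand: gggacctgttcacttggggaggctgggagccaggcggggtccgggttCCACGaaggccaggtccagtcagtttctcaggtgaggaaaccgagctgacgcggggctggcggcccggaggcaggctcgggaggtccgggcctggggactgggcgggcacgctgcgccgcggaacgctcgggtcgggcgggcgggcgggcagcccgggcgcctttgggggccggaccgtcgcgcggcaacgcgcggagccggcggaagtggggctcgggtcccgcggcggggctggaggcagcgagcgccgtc
The printed PIGP window held 3 matches to ACGTG and 2 to CCACG, some of which overlap, while the window of another annotated start of PIGP, chr21:37072754-37073053, held 2 matches to CCACG and none to ACGTG. PIGA also had a window for another start, chrX:15335505-15335804, which held the same number of ACGTG matches as the printed one. The printed PIGA and PIGC windows each held 1 match to ACGTG, and the PIGQ window held 1 match to CCACG and none to ACGTG. Such a match is a description of the letters, not a site of binding.

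Promoter windows were in the RefSeq table for 25 of the 30 members, all but PIGH, PIGF, PIGG, GPAA1 and PIGY. ACGTG was present on either strand for 8 of the 25 (32.0%), PIGA, PIGB, PIGC, PIGP, PIGU, PIGW, PGAP6 and GPLD1, where 24.9% of all genes held it. Counted by window, since some genes have several starts, it was in 9 of the members' 37 windows (24.3%) and in 21.4% of all 35116 windows. CCACG was present for 17 members (68.0%), where 42.1% of all genes held it, and in 21 of the 37 windows (56.8%), where 38.1% of all windows held it. TGACGT, a letter string of cyclic AMP response elements that can overlap ACGTG by its last 4 letters, was present for 5 (20.0%), PIGA, PIGP, ARV1, PGAP2 and GPLD1, where 9.64% of genes held it, and in 7 of the 37 windows (18.9%), where 7.98% of all windows held it. The full ER stress elements ERSE and ERSE-II, found in 0.0769% and 0.0541% of all windows, were in the window of no member. Of the 12 members lower after knockdown, 4 held ACGTG (PIGA, PIGC, PIGP and PIGW), and of the 11 uncalled members with a window, 4 held it too (PIGB, PIGU, PGAP6 and GPLD1).

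PIGP, a small subunit of the transferase, was at 37.3, 31.7, 36.3 and 36.3 CPM in siCtrl replicates 1 to 4 and at 14.3, 16.0, 14.6 and 14.8 CPM in siXBP1 replicates 1 to 4. In the inhibitor experiment PIGP was at 36.4, 36.8, 35.2 and 34.7 CPM in Vehicle replicates 1 to 4 and at 33.6, 35.1, 32.9 and 33.8 CPM in MKC8866 replicates 1 to 4. PIGP was lower in every siXBP1 library than in each of the other 12, and the siCtrl, Vehicle and MKC8866 ranges overlapped one another. With edgeR it fell after knockdown (log2 fold change -1.25, standard error 0.0628, adjusted p = 4.96e-13), the largest change among the 28 tested members, and did not pass the test with MKC8866 (-0.08, adjusted p = 0.521). Its responses differed by -1.17 (adjusted p = 8.26e-13) on the log2 scale.

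PIGC, a membrane subunit of the same enzyme, was at 18.1, 17.9, 18.6 and 19.4 CPM in siCtrl replicates 1 to 4 and at 12.8, 13.8, 13.4 and 12.3 CPM in siXBP1 replicates 1 to 4. Vehicle replicates 1 to 4 had 17.1, 20.5, 16.2 and 18.7 CPM of PIGC, and MKC8866 replicates 1 to 4 had 18.1, 19.04, 16.0 and 14.8 CPM. The siXBP1 libraries lay below all others for PIGC, while Vehicle and MKC8866 overlapped. PIGC fell after knockdown (log2 fold change -0.50, standard error 0.0649, adjusted p = 1.88e-06), had -0.09 with MKC8866 (adjusted p = 0.678), and its responses differed by -0.41 (adjusted p = 0.00579).

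PIGA, the catalytic subunit, was at 181, 176, 174 and 186 CPM in siCtrl replicates 1 to 4 and at 145, 141, 135 and 144 CPM in siXBP1 replicates 1 to 4. Levels of PIGA in Vehicle replicates 1 to 4 were 139, 145, 139 and 144 CPM, and those in MKC8866 replicates 1 to 4 were 133, 145, 139 and 147 CPM. The siCtrl libraries were the high ones for PIGA: they stood above siXBP1 and also above Vehicle and MKC8866, whose ranges overlapped that of siXBP1. Whether siCtrl and Vehicle differed was not tested. PIGA fell after knockdown (log2 fold change -0.34, standard error 0.0400, adjusted p = 4.71e-07), had 0.00 with MKC8866 (adjusted p = 0.984), and its responses differed by -0.34 (adjusted p = 3.70e-05). Summed over the genes of this step, of which PIGA held the most counts, the level was 309.7 ± 7.56 CPM in siCtrl, 249.4 ± 4.16 CPM in siXBP1, 278 ± 4.77 CPM in Vehicle and 285 ± 3.88 CPM in MKC8866 (mean and SD, n = 4 each).

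PIGQ, a subunit thought to stabilise the complex, was at 30.1, 29.7, 34.5 and 30.9 CPM in siCtrl replicates 1 to 4 and at 32.3, 28.9, 30.0 and 33.05 CPM in siXBP1 replicates 1 to 4. In the inhibitor experiment PIGQ was at 33.2, 30.2, 35.8 and 32.2 CPM in Vehicle replicates 1 to 4 and at 47.6, 42.4, 47.5 and 43.3 CPM in MKC8866 replicates 1 to 4. All 4 MKC8866 libraries lay above all 12 others for PIGQ, and siCtrl and siXBP1 overlapped. PIGQ rose with MKC8866 (log2 fold change 0.46, standard error 0.0578, adjusted p = 5.78e-06; adjusted p = 5.80e-13 with the replicate block) and had -0.01 after knockdown (adjusted p = 0.922). The difference between its responses was -0.47 (adjusted p = 1.18e-04).

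PIGH, a cytoplasmic subunit that binds PIGA, was at 24.0, 26.2, 25.3 and 25.4 CPM in siCtrl replicates 1 to 4 and at 27.8, 29.6, 30.7 and 27.2 CPM in siXBP1 replicates 1 to 4. Vehicle replicates 1 to 4 had 29.1, 27.8, 26.4 and 27.7 CPM of PIGH, and MKC8866 replicates 1 to 4 had 27.4, 26.9, 27.4 and 24.98 CPM. For PIGH the siXBP1 libraries lay above the siCtrl ones, and the Vehicle and MKC8866 ranges overlapped. PIGH rose after knockdown (log2 fold change 0.19, standard error 0.0563, adjusted p = 0.0106), had -0.06 with MKC8866 (adjusted p = 0.722), and its responses differed by 0.25 (adjusted p = 0.0162). ARV1, an ER membrane protein linked to this step, had 0.00 after knockdown (adjusted p = 0.972) and -0.06 with MKC8866 (adjusted p = 0.76), with overlapping groups in both experiments. The plot of the first step shows genes lower in siXBP1 (PIGA, PIGC and PIGP), higher in siXBP1 (PIGH), higher in MKC8866 (PIGQ) and overlapping in both experiments (ARV1).

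**Figure D2:**
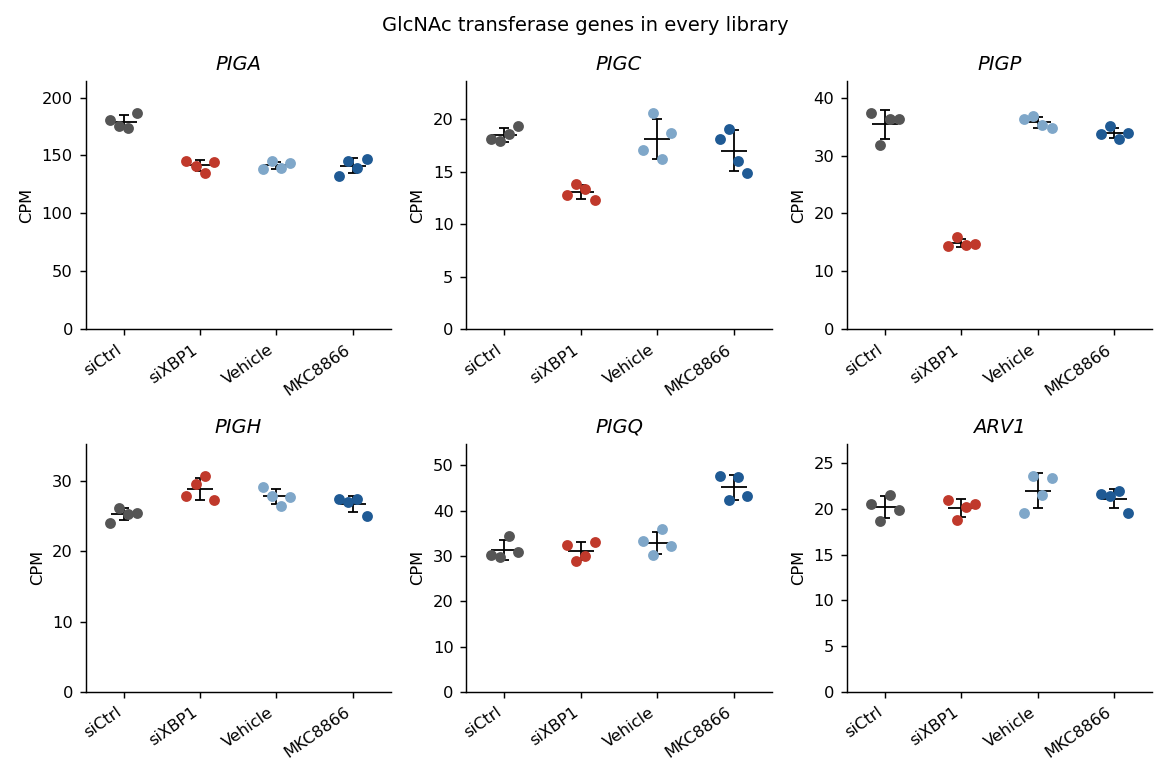
CPM of 6 genes of the first step in each of the 16 libraries (points), with the mean and SD of each group. PIGP lies at 14.3 to 16.0 CPM in siXBP1 and 31.7 to 37.3 CPM in siCtrl, and PIGQ lies at 42.4 to 47.6 CPM in MKC8866 and 30.2 to 35.8 CPM in Vehicle.

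The next enzymes, PIGL, which removes the acetyl group of the sugar, and PIGW, which adds an acyl chain to the inositol, both fell after knockdown. Of all genes tested, 18.2% were lower. PIGW, the acyltransferase, was at 47.1, 42.5, 45.8 and 44.5 CPM in siCtrl replicates 1 to 4 and at 34.6, 38.6, 38.4 and 35.2 CPM in siXBP1 replicates 1 to 4. Levels of PIGW in Vehicle replicates 1 to 4 were 42.6, 46.9, 45.2 and 42.9 CPM, and those in MKC8866 replicates 1 to 4 were 39.4, 44.8, 41.2 and 42.4 CPM. PIGW was lower in each siXBP1 library than in any siCtrl one, and Vehicle and MKC8866 overlapped. PIGW fell after knockdown (log2 fold change -0.29, standard error 0.0523, adjusted p = 1.10e-04) and had -0.08 with MKC8866 (adjusted p = 0.539). Its responses differed by -0.21 (adjusted p = 0.0338), but this call was lost without siCtrl replicate 1 or 3, siXBP1 replicate 1 or 4, Vehicle replicate 1 or 4, or MKC8866 replicate 2 or 4 (adjusted p between 0.0562 and 0.0753), and with no filter on low counts (adjusted p = 0.0507). Of its exon bases 20.8% are shared with MYO19 on the other strand, and MYO19, a myosin gene, had -0.22 after knockdown (adjusted p = 9.15e-05). PIGL had -0.30 after knockdown (adjusted p = 5.05e-04) with groups that did not overlap, and -0.03 with MKC8866.

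Among the 5 genes of mannose transfer, PIGM and PIGV fell after knockdown, beside 18.2% of all genes. PIGV, which adds the second mannose, was at 27.6, 26.6, 29.4 and 27.7 CPM in siCtrl replicates 1 to 4 and at 21.7, 23.1, 22.3 and 21.4 CPM in siXBP1 replicates 1 to 4. In the inhibitor experiment PIGV was at 27.3, 26.3, 25.6 and 26.4 CPM in Vehicle replicates 1 to 4 and at 28.8, 24.8, 30.9 and 24.2 CPM in MKC8866 replicates 1 to 4. The siXBP1 libraries lay below all others for PIGV, and the MKC8866 libraries spread around the Vehicle ones. PIGV fell after knockdown (log2 fold change -0.33, standard error 0.0554, adjusted p = 5.71e-05), had 0.04 with MKC8866 (adjusted p = 0.854), and its responses differed by -0.37 (adjusted p = 0.00281).

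PIGM, which adds the first mannose, was at 38.0, 43.6, 44.0 and 41.2 CPM in siCtrl replicates 1 to 4 and at 36.3, 35.4, 39.7 and 38.1 CPM in siXBP1 replicates 1 to 4. Vehicle replicates 1 to 4 had 42.7, 42.2, 44.2 and 45.3 CPM of PIGM, and MKC8866 replicates 1 to 4 had 37.2, 38.2, 37.5 and 38.1 CPM. For PIGM the MKC8866 libraries lay below all Vehicle libraries, while siXBP1 and siCtrl overlapped through siCtrl replicate 1. PIGM fell with MKC8866 (log2 fold change -0.21, standard error 0.0473, adjusted p = 0.0088; adjusted p = 8.96e-05 with the replicate block), a call lost without Vehicle replicate 4 (adjusted p = 0.0532). After knockdown PIGM also passed the test (log2 fold change -0.16, standard error 0.0558, adjusted p = 0.0306), a call lost without siCtrl replicate 2, 3 or 4 or siXBP1 replicate 1, 2 or 4 (adjusted p between 0.0551 and 0.13). The difference between its responses was 0.05 (adjusted p = 0.683). PIGM is shown in every library because it alone was lower in both comparisons, a choice made after its values were seen.

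The other genes of mannose transfer did not pass the test in either comparison. PIGX, the partner of PIGM, had 0.08 after knockdown (adjusted p = 0.437) and -0.03 with MKC8866. PIGB, which adds the third mannose, had -0.02 and 0.03, and PIGZ, which can add the fourth, had 0.14 (adjusted p = 0.555) and 0.08 at 59 to 106 counts per library.

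Of the 4 genes of ethanolamine phosphate transfer, PIGN and PIGO fell after knockdown, beside 18.2% of all genes. None of the 4 passed the test with MKC8866 in edgeR, beside 4.47% of all genes. PIGO, which modifies the third mannose, where the protein is later joined, was at 102, 115, 115 and 109.8 CPM in siCtrl replicates 1 to 4 and at 97.4, 89.6, 86.4 and 94.4 CPM in siXBP1 replicates 1 to 4. Levels of PIGO in Vehicle replicates 1 to 4 were 106, 93.0, 106 and 102 CPM, and those in MKC8866 replicates 1 to 4 were 108, 95.0, 112 and 99.1 CPM. Each siXBP1 library lay below each siCtrl library for PIGO, and Vehicle and MKC8866 overlapped. PIGO fell after knockdown (log2 fold change -0.26, standard error 0.0483, adjusted p = 1.47e-04), had 0.03 with MKC8866 (adjusted p = 0.878), and its responses differed by -0.29 (adjusted p = 0.00521). PIGN, which modifies the first mannose, had -0.14 after knockdown (adjusted p = 0.0148), a call lost without siXBP1 replicate 2 (adjusted p = 0.0657). PIGF, the partner of PIGO and PIGG, had -0.23 (adjusted p = 0.105) at 109 to 185 counts per library, and PIGG, which modifies the second mannose, had -0.07 (adjusted p = 0.312).

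The transamidase joins the finished anchor to the protein, with PIGK as its catalytic subunit and GPAA1, PIGS, PIGT and PIGU beside it. After knockdown PIGT rose and PIGS fell, beside 16.5% and 18.2% of all genes, and the other 3 subunit genes did not pass the test. PIGT, a subunit that holds the complex together and the most abundant of the 30 genes per kilobase, was at 111, 128, 128 and 122 CPM in siCtrl replicates 1 to 4 and at 157, 155, 144 and 158 CPM in siXBP1 replicates 1 to 4. In the inhibitor experiment PIGT was at 123, 115, 122 and 119 CPM in Vehicle replicates 1 to 4 and at 134, 121, 129 and 121 CPM in MKC8866 replicates 1 to 4. Every siXBP1 library lay above all 12 others for PIGT, and Vehicle and MKC8866 overlapped. PIGT rose after knockdown (log2 fold change 0.33, standard error 0.0474, adjusted p = 7.91e-06), had 0.08 with MKC8866 (adjusted p = 0.414), and its responses differed by 0.25 (adjusted p = 0.00493).

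PIGS, another subunit of the transamidase, was at 107, 121, 118 and 113 CPM in siCtrl replicates 1 to 4 and at 109, 102, 99.7 and 105 CPM in siXBP1 replicates 1 to 4. Vehicle replicates 1 to 4 had 105, 98.5, 104 and 96.3 CPM of PIGS, and MKC8866 replicates 1 to 4 had 106, 98.6, 109 and 101 CPM. The siCtrl and siXBP1 ranges of PIGS overlapped, as siCtrl replicate 1 lay within the siXBP1 range, and so did those of Vehicle and MKC8866. PIGS passed the test after knockdown (log2 fold change -0.14, standard error 0.0459, adjusted p = 0.0188), a call lost without siCtrl replicate 2 or 3 or siXBP1 replicate 2 or 3 (adjusted p between 0.0661 and 0.105). With MKC8866 it had 0.04 (adjusted p = 0.754). Its responses differed by -0.18 (adjusted p = 0.0419), a call lost without siCtrl replicate 2 or 3, siXBP1 replicate 2, 3 or 4, Vehicle replicate 2 or 4, or MKC8866 replicate 1 or 3 (adjusted p between 0.0513 and 0.101), and with no filter on low counts (adjusted p = 0.0569). PIGK had -0.06 after knockdown (adjusted p = 0.384), GPAA1 0.05 (adjusted p = 0.381) and PIGU -0.09 (adjusted p = 0.226).

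Once the protein is attached, PGAP1 removes the acyl chain from the inositol and MPPE1 removes an ethanolamine phosphate, which readies the protein for export from the ER. In the steps after attachment, MPPE1 and PGAP2 were called lower after knockdown, beside 18.2% of all genes. MPPE1 was lower in each siXBP1 library than in any siCtrl library and passed the test (log2 fold change -0.23, standard error 0.0677, adjusted p = 0.0118), a call lost without siXBP1 replicate 1 (adjusted p = 0.0508) or 4 (adjusted p = 0.0542). Of its exon bases 36.3% are shared, mainly with GNAL. PGAP1 had 0.10 after knockdown (adjusted p = 0.331). In the Golgi, PGAP3 and PGAP2 exchange a fatty acid of the anchor. PGAP2 was lower in siXBP1 than in siCtrl without overlap (log2 fold change -0.15, standard error 0.0476, adjusted p = 0.0187), a call lost without siCtrl replicate 3 or 4 or siXBP1 replicate 1 or 2 (adjusted p between 0.0619 and 0.0714) and with no filter on low counts, while PGAP3 had -0.03. The siXBP1 libraries, at 38.1 to 41.0 CPM of PGAP2, stood above the Vehicle ones at 35.4 to 37.5 CPM. Whether siCtrl, at 41.9 to 44.6 CPM, and Vehicle differed was not tested. GPLD1, a phospholipase that can cut the anchor, had 0.50 after knockdown with a standard error of 0.341 (adjusted p = 0.293) and -0.34 with MKC8866, so at its depth a change of this size was not detectable.

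PGAP6, a phospholipase that acts on certain anchored proteins, was at 103, 107, 111 and 103 CPM in siCtrl replicates 1 to 4 and at 105, 96.6, 97.6 and 97.3 CPM in siXBP1 replicates 1 to 4. Levels of PGAP6 in Vehicle replicates 1 to 4 were 92.6, 79.3, 94.7 and 88.4 CPM, and those in MKC8866 replicates 1 to 4 were 104, 93.4, 106 and 96.4 CPM. The Vehicle and MKC8866 ranges of PGAP6 overlapped, although each MKC8866 library lay above the Vehicle library of the same number. PGAP6 did not pass the test with MKC8866 (log2 fold change 0.18, standard error 0.0536, adjusted p = 0.0662), but rose with the replicate block (adjusted p = 1.53e-05). It also passed with DESeq2 (adjusted p = 0.0475), with no filter on low counts (adjusted p = 0.00907), in the fit of all 16 libraries (adjusted p = 0.0402) and without MKC8866 replicate 2 (adjusted p = 0.0187). After knockdown it had -0.10 (adjusted p = 0.0781), which became adjusted p = 0.0421 without siXBP1 replicate 1. Its responses differed by -0.27 (adjusted p = 0.00513). PGAP6 and PIGQ, the members that rose with MKC8866 and the block, lie 179.9 kb apart on chromosome 16, with 12 annotated genes between them. Of those 12, 8 were tested with MKC8866 and had log2 fold changes of -0.81 to 0.13, and the 4 of them with at least 100 counts in each of the 16 libraries had -0.01 to 0.13. Of the 8, 0 were called with edgeR, beside 4.47% of all genes, 0 with edgeR and the block, beside 13%, and 0 with DESeq2. At an unadjusted p under 0.05 there were 0 of the 8 with edgeR and 2 with the block. The share of all genes under that unadjusted threshold was not computed, so these counts have no comparison.

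**Figure D3:**
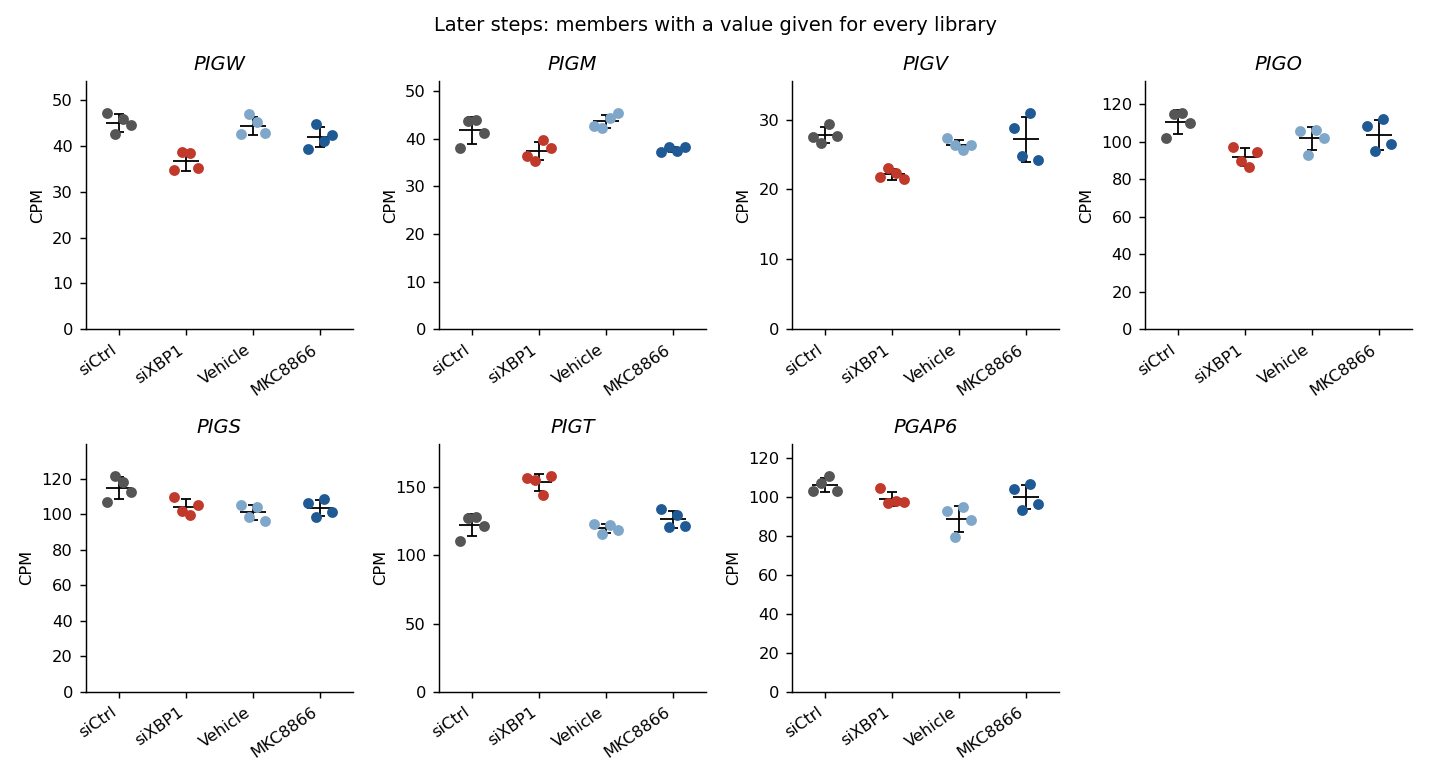
CPM of 7 genes of the later steps in each of the 16 libraries (points), with the mean and SD of each group. PIGT lies at 144 to 158 CPM in siXBP1 and 111 to 128 CPM in siCtrl, while PIGM lies at 37.2 to 38.2 CPM in MKC8866 and 42.2 to 45.3 CPM in Vehicle.

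Most genes that supply the mannose of the anchor fell after knockdown, and several fell with MKC8866; whether this list differed from the GPI genes was not tested. Of 14 genes of GDP-mannose and dolichol phosphate mannose supply, all tested, 9 were lower and 1 was higher after knockdown, beside 18.2% and 16.5% of all genes, at a median log2 value of -0.30. Under MKC8866 5 were lower beside 3.11% of all genes (7 beside 7.05% with the replicate block), at a median of -0.13. GMPPA, which regulates the enzyme that makes GDP-mannose, had -1.24 after knockdown (adjusted p = 4.77e-13) and -0.96 with MKC8866 (adjusted p = 3.18e-12). GMPPB, the catalytic subunit of that enzyme, had -0.76 (adjusted p = 9.56e-12) and -0.58 (adjusted p = 6.76e-09). DHDDS, which makes the dolichol chain, had -0.52 after knockdown (adjusted p = 3.97e-08), and PMM2, a phosphomannomutase, had -0.29 with MKC8866 (adjusted p = 0.00182). MPDU1, needed for the use of dolichol phosphate mannose, was the 1 higher gene of the list after knockdown (0.14, adjusted p = 0.0183). ACGTG was in a promoter window of 10 of these 14 genes, where 24.9% of all genes and 21.4% of all windows held it, though windows were not counted for this list. The 10 included MPDU1, the higher gene, and whether the letters went with the direction of change was not tested.

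Of 9 genes that assist GPI anchor synthesis or carry anchored proteins onward, 4 were lower and 1 higher after knockdown, beside 18.2% and 16.5% of all genes (median log2 fold change -0.05). With MKC8866 5 were lower, beside 3.11% of all genes, and also 5 with the replicate block, beside 7.05% (median -0.18). The cargo receptor genes of the p24 family led both: TMED10 had -0.81, TMED5 -0.71 and TMED9 -0.70 after knockdown (adjusted p = 2.27e-13, 2.45e-12 and 2.83e-12). With MKC8866, TMED5 and TMED9 both had -0.47 (adjusted p = 7.73e-07 and 1.62e-08), and TMED2 had -0.35 (adjusted p = 9.41e-07). GDPD5, whose product sheds certain anchored proteins, rose after knockdown (0.56, adjusted p = 5.08e-04).

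Genes of proteins that carry a GPI anchor passed the test in both directions. Of 49 listed, 37 were tested, of which 11 were lower and 8 higher after knockdown, beside 18.2% and 16.5% of all genes (median log2 fold change 0.01). With MKC8866 3 were lower and 2 higher, beside 3.11% and 1.36% of all genes, and with the replicate block 5 and 2, beside 7.05% and 6.0%. PRNP, the prion protein gene, fell after knockdown (-1.30, adjusted p = 5.66e-16) and with MKC8866 (-0.20, adjusted p = 7.23e-04). The next lower after knockdown were PLAUR, the urokinase receptor (-0.97, standard error 0.301, adjusted p = 0.0142), and LYPD3 (-0.68, standard error 0.262, adjusted p = 0.048). With the replicate block LYPD3 no longer passed the test (adjusted p = 0.062). GPC5, a glypican (1.13, standard error 0.434, adjusted p = 0.0473), CD55 (0.98, adjusted p = 3.48e-08) and GAS1 (0.76, adjusted p = 0.00568) rose after knockdown. With MKC8866, EFNA4, an ephrin (-0.48, adjusted p = 0.00182), and ULBP2, a ligand of an immune receptor (-0.39, adjusted p = 0.00489), fell, while CD59 (0.71, adjusted p = 3.00e-10) and GPC1, a glypican (0.44, adjusted p = 1.85e-04), rose. After knockdown CD59 instead fell (-0.18, adjusted p = 0.00713), and its responses differed by -0.89 (adjusted p = 3.10e-11). EFNA4 fell (-0.65, adjusted p = 4.24e-05) and GPC1 rose (0.56, adjusted p = 3.82e-07) after knockdown as well. The plot of the lists shows their medians beside those of the GPI genes.

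**Figure D4:**
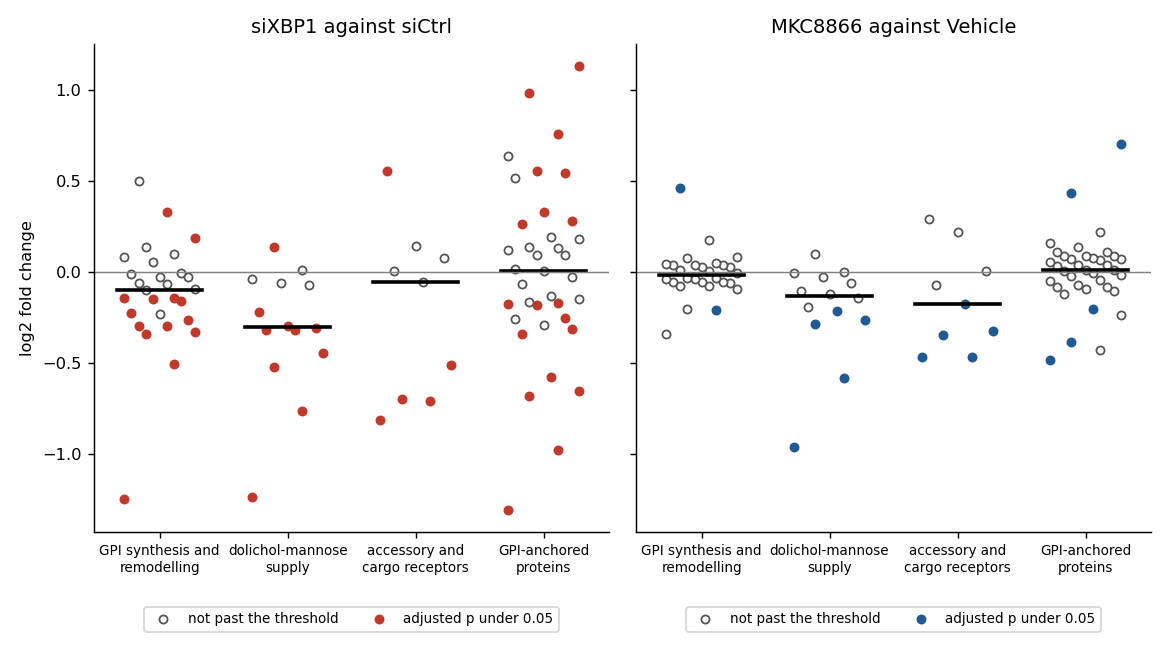
Log2 fold changes of the GPI genes and of the 3 related lists in both comparisons, with a bar at each list's median and filled points for adjusted p under 0.05. The median of the mannose supply genes lies at -0.30 after knockdown and -0.13 with MKC8866.

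Some members share exon bases with other genes or have pseudogenes, whose part in the values above was not tested. Exon bases shared with other genes made up 25.4% for PIGF, 19.1% for PIGH (with PLEKHH1, which had 0.01 after knockdown), 14.3% for PIGQ (with NHLRC4 and an unnamed gene), 14.2% for PIGB, 13.4% for GPLD1 and 9.4% for PIGL, and at most 5.29% for each member not named with a share here or above. Among the genes that share these bases, CENPV (-0.28, adjusted p = 0.019) and NCOR1 (-0.16, adjusted p = 0.00443), which overlap PIGL, and CRIPT (-0.32, adjusted p = 0.0291), which overlaps PIGF, fell after knockdown, and MRS2 (0.17, adjusted p = 0.00537), which overlaps GPLD1, rose. CENPV, NCOR1, CRIPT and MRS2 each lie on the other strand from the member they overlap. Of the genes that overlap members with smaller shares, ERBB2 (-0.45, with PGAP3), NCOA6 (-0.33, with PIGU) and an unnamed gene (0.67, with PGAP6) also passed the test after knockdown, as did HERC3 (-0.13), which overlaps PIGY. Of these, NCOA6 lies on the same strand as its member and the others on the other strand. PIGA, PIGC, PIGP, PIGM, PIGV, PIGS and PIGT shared no exon bases. The pseudogenes had fewer counts than their parent genes. PIGUP1 had 215 to 404 counts per library and a log2 fold change of -0.315 after knockdown (adjusted p = 0.00726), PIGCP1 had 52 to 121 (0.12, adjusted p = 0.578), PIGHP1 16 to 44, and PIGAP1 0 to 10. For comparison, PIGU had 812 to 1041 counts per library, PIGC 370 to 661, PIGH 762 to 944 and PIGA 3988 to 6360.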

How the data were processed

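RNA-seq read counts per gene were deposited by the authors, who aligned reads with STAR 2.5.2a and used featureCounts 1.5.0 with Ensembl 85 gene models, leaving out fragments on exons shared by several genes. Total counts per library ranged from 28713607 to 34509488. The 16 libraries were grouped by their titles. Each comparison was fitted on its 8 libraries in R 4.3.3 with edgeR 4.0.16 (TMM factors, glmQLFit and glmQLFTest, two-sided) on every gene that exceeded 5 counts in 1 or more libraries per group. The p-values were adjusted by Benjamini-Hochberg over all genes tested and called under 0.05. The difference between responses used all 16 libraries and the genes that passed both filters. The model code was tested on simulated counts.

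The members and lists were chosen with earlier results of these data known. Every library's value is given for members called with an absolute log2 fold change of at least 0.4 in either comparison and for members whose responses differed; from each related list, the 3 called genes with the largest absolute changes per comparison and direction are named. Pairing by replicate number was checked by correlating deviations from group means across genes. Over 16695 genes with at least 10 counts in every library, MKC8866 and Vehicle libraries of the same number correlated at 0.1107 to 0.3682, above the 0.1 set as minimum, while pairs of different number reached 0.1474; over all 21045 genes tested, the set looked at before it, the lowest was 0.0843, under that minimum. For siXBP1 and siCtrl the range was -0.0048 to 0.0682 over 16620 genes. Since the pairing thus depended on a gene set chosen after seeing the data, counts of called genes with MKC8866 are given without and with the replicate block, and single values are without it unless stated. Alternatives tried were DESeq2 1.42.0, edgeR with RLE factors, other count filters, adjusted p under 0.01, the replicate block, 1 fit of all 16 libraries, leaving out members that share over 20% of their exon bases, and leaving out each library. Some luminal markers are not reported here. Promoter motifs were searched on both strands as exact letters. Tables and figures were made with Python 3.11.15, pandas 2.3.3 and matplotlib 3.10.9.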

Additional observations from a re-analysis of the deposited data

Results flagged for a closer look

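In 68 groups of 4 libraries, 2 values stood far from the other 3 of their group, and chance sets apart about 1 in 20 groups. PGAP6 was at 104.6 CPM in siXBP1 replicate 1, where the other 3 siXBP1 libraries lay between 96.63 and 97.65 CPM. ERN1, the gene for IRE1, was at 159.0 CPM in Vehicle replicate 2, where the other 3 Vehicle libraries lay between 168.4 and 170.0 CPM.

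In the edgeR fit of all 16 libraries, 11 GPI genes responded differently to knockdown and to MKC8866. These were 39.3% of the 28 tested, beside 23.3% of the 20357 genes tested. The log2 change after knockdown minus that with MKC8866 was below 0 for 9 of the 11 GPI genes. Among all 20357 genes, this difference was called below 0 for 2578 and above 0 for 2157. In the first step it was -1.17 (adjusted p = 8.26e-13) for PIGP, -0.47 (adjusted p = 1.18e-04) for PIGQ, -0.41 (adjusted p = 0.00579) for PIGC and -0.34 (adjusted p = 3.70e-05) for PIGA. In later steps it was -0.37 (adjusted p = 0.00281) for PIGV, -0.29 (adjusted p = 0.00521) for PIGO, -0.27 (adjusted p = 0.00513) for PGAP6, -0.21 (adjusted p = 0.0338) for PIGW and -0.18 (adjusted p = 0.0419) for PIGS. It was above 0 for PIGT, 0.25 (adjusted p = 0.00493), and PIGH, 0.25 (adjusted p = 0.0162). The experiments differ in controls and pretreatment as well as in treatment, and these cannot be told apart.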

How the results depend on the processing

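No called change of a GPI gene took the opposite sign under any alternative run. For the 12 GPI genes given in every library, 552 of 588 values under an alternative kept their side of the threshold, 30 no longer passed it and 6, all of PGAP6, newly passed it. At adjusted p under 0.01, the GPI genes lower after knockdown went from 12 to 7, those higher from 2 to 1, and those lower in both comparisons from 1 to 0, since fewer genes pass a stricter threshold. The genes higher with MKC8866 went from 1 to 2, with PGAP6 added, under DESeq2, with no filter on low counts, with the paired replicate block and in 1 fit of all 16 libraries. Leaving out each library in turn gave 8 to 12 genes lower after knockdown, 0 to 1 lower with MKC8866, 1 to 2 higher with MKC8866 and 0 to 1 lower in both comparisons; the cause was not tested beyond the smaller number of libraries. With no filter on low counts, 11 of the 12 genes stayed lower after knockdown, PGAP2 being lost. Without members that share over 20% of their exon bases, 10 were lower after knockdown and 10 differed between responses, since MPPE1 and PIGW, or PIGW alone, were left out. The replicate block changed no other call of a member in either comparison. The 11 genes whose responses differed became 13, with PIGL and MPPE1 added, under the block, DESeq2 and the filter of at least 10 counts in every library, 9 with no filter, 8 at adjusted p under 0.01 and 9 to 12 without 1 library. DESeq2 or RLE scaling moved the median of all genes by at most 0.00532 on the log2 scale. With 4 libraries a group, changes near the within-group spread were not detectable, above all for GPLD1, PIGZ and PIGF, which had few counts.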
